A study of Mus musculus with 24 samples.

Results

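The loci described here are those of 8 genes that mark or drive skeletal muscle precursors: Pax3, Pax7, Lbx1, Met, Myf5, Myod1, Myog and Six4, of 21911 protein-coding genes. A peak was taken as a member when it overlapped the mm10 gene body of such a gene extended by 50 kb on either side, and 272 of the 368246 peaks in the 7 lists met this rule. The lists came from chromatin immunoprecipitation and sequencing (ChIP-seq), which maps where a histone mark sits on the genome. Forelimb buds of Swiss Webster embryos at E10.5 (32 to 35 somites) were collected as wild type (WT) or Shh-/-, the latter lacking the Sonic hedgehog signal of the posterior limb, with about 400000 cells per immunoprecipitation. Per the study's methods, the limb buds were pooled over litters, the Shh allele is a null, and the WT pool mixed wild-type with heterozygous littermates. H3K27ac and H3K4me2 were mapped in both genotypes and H3K27me3 in Shh-/- limbs. NIH3T3 cells, a mouse embryonic fibroblast line that responds to Hedgehog, were mapped for H3K27ac (1000000 cells each) after 48 h with 400 nM purmorphamine, an agonist of the Hedgehog pathway, or with DMSO as vehicle. The sample labels give LIF for both of these cell groups, and the methods give low serum.

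Muscle cells of the limb are not made in the limb bud. They leave the lateral dermomyotome of the somites as Pax3-positive precursors, migrate into the bud under the guidance of HGF made by the limb mesenchyme and its receptor Met, keep Lbx1 on as they move, and switch on the myogenic bHLH factors Myf5, Myod1 and Myog only later. In a whole limb bud they are a minority among mesenchymal cells. H3K27ac marks active promoters and enhancers, H3K4me2 marks promoters and enhancers that are active or poised, and H3K27me3 is laid down by Polycomb repressive complex 2 over genes kept silent. A promoter with both an H3K4 methyl mark and H3K27me3 is called bivalent, which in a tissue can mean both marks in the same cells or each mark in different cells.

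Each list pooled 2 replicates against input DNA, so there was 1 list per condition and no spread between replicates could be set against any difference below. The values are therefore descriptions, with 95% Wilson intervals on shares that cover counting error only, beside the same share over the whole list. A peak of the limb was called WT-only or Shh-/- only when it shared no base with a peak of the other genotype. In whole limbs, fewer cells of a type and less of a mark in each cell cannot be told apart. As a check of the limb label, the promoters of all 5 limb mesenchyme markers (Prrx1, Tbx5, Twist1, Msx1, Lmx1b) held H3K27ac in both genotypes. So did 2 of 4 fibroblast markers (Col1a2 and Fn1). Of 8 endothelial genes 1 held it in each genotype, Cdh5 in WT and Erg in Shh-/-. Of 3 somite markers 2 held it in WT and 1 in Shh-/-. In either genotype 0 of 4 neural, 0 of 4 blood and 0 of 4 ectoderm markers held it. All 4 fibroblast markers held it in NIH3T3 cells. The genotype labels were not checked here.

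**Figure D1:**
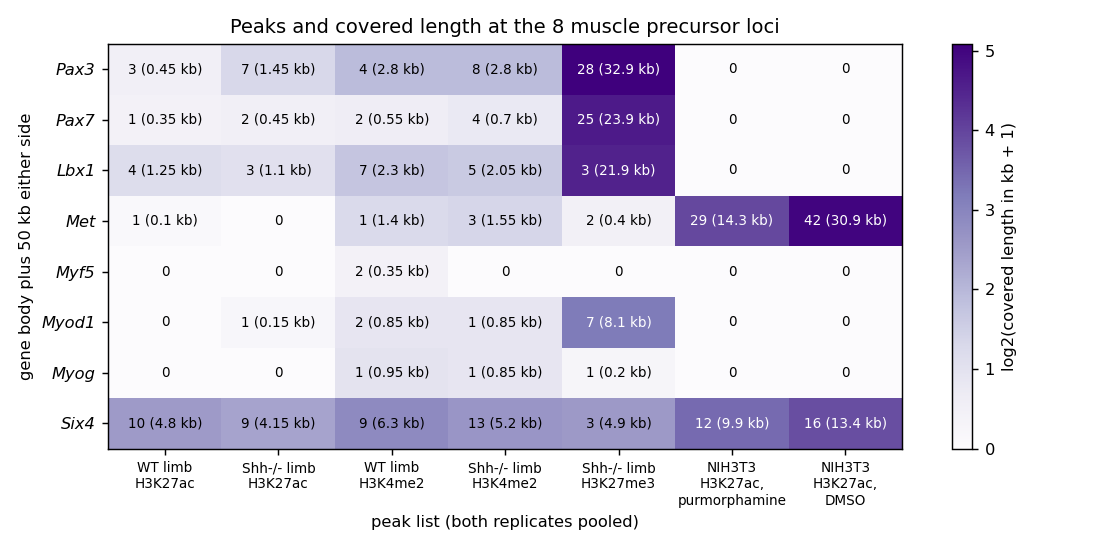
Number of peaks and, in brackets, their summed length in kb for each of the 8 genes (rows, gene body plus 50 kb either side) in each of the 7 lists (columns, both replicates pooled). Colour is log2(kb + 1). The long H3K27me3 cover sits at Pax3, Pax7 and Lbx1, the limb H3K27ac peaks mostly at Six4, and the NIH3T3 peaks at Met and Six4 alone.

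RefSeq promoter sequences (GRCm38.p6) were at hand for 5 of the 8 genes, Pax7, Met, Myf5, Myog and Six4, but not for Pax3, Lbx1 and Myod1. The 250 bases before the RefSeq start held 24 CpG dinucleotides at Met, 13 at Pax7 and 13 at Six4, and these 3 promoters carried H3K4me2 in both genotypes. They held 7 at Myog and 3 at Myf5, whose promoters carried no peak of the 5 limb lists. The median over 32851 promoters was 6, and 88.0%, 68.5%, 68.5%, 53.7% and 29.0% of promoters held fewer CpG than those of Met, Pax7, Six4, Myog and Myf5. The unmarked promoter of Myf5 and the marked ones of Met and Six4 are printed here with every CpG in capitals, each cut where a GENCODE transcript of the gene begins. GENCODE starts lie further upstream than the RefSeq ones at some of these genes, so that at Pax7 all 250 bases and 13 CpG, at Met 157 bases and 19 CpG and at Six4 31 bases and 2 CpG lay inside a transcript. The counts are thus not all of bases before the first start, and Pax7 is not printed.
Met, chr6:17463707-17463799, plus strand: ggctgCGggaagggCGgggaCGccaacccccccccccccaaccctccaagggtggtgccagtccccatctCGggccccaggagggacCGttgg
Six4, chr12:73113457-73113675, minus strand: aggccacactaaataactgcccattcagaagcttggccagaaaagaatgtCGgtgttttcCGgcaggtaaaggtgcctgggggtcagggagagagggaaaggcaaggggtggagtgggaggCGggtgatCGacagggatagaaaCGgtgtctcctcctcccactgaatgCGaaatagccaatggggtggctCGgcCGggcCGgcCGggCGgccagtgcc
Myf5, chr10:107486135-107486384, minus strand: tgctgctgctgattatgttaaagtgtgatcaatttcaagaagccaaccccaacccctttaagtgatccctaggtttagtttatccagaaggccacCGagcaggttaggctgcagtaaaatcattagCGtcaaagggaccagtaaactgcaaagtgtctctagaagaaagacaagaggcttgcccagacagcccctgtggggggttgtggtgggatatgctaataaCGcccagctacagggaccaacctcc

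The Myog promoter is shown for its motifs, being the only one of the 5 with a match to TCAGGTT, the core of the MEF3 element that Six4 binds, which 3.49% of all promoters of this length held on either strand. It also held 2 matches to CANNTG, the E-box that myogenic bHLH factors bind, found in 66.2% of promoters. Met held 1 E-box in its 250 bases, and Pax7, Myf5 and Six4 none. None of the 5 held CAGCTG, itself a form of CANNTG (13.0% of promoters), or GACCACCCA, the core of a GLI site (0.225%). Capitals mark the match to TCAGGTT and the 1 match to CANNTG that lies before the transcript, a sequence picked after its values were seen.
Myog, chr1:134289754-134289988, plus strand: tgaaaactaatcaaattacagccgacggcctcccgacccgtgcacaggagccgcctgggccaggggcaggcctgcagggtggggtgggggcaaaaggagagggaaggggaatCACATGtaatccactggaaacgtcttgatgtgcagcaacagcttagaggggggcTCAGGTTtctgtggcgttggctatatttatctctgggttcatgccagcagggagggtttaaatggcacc

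The promoters of the muscle precursor genes carried H3K27ac at 1 of 8 in WT and 3 of 8 in Shh-/- limbs, H3K4me2 at 5 of 8, and H3K27me3 at 5 of 8. A promoter was taken as 2 kb before to 1 kb after the gene start. In WT limbs H3K27ac lay over 1 of the 8 promoters, that of Six4, against 41.4% of all coding genes. In Shh-/- limbs it lay over 3, those of Six4, Pax3 and Lbx1 (37.5%), close to the 38.5% of all genes. The peaks over Pax3 and Lbx1 in Shh-/- were among the weaker of 43916: rank 42250 at Pax3 (FDR 0.0564) and ranks 33128 and 41716 at Lbx1. WT limbs had H3K27ac peaks 1.16 kb (rank 29603) and 1.71 kb (rank 13472) into Lbx1, the nearer one just outside the promoter window. With the better-ranked 50% of each list, the Shh-/- count was 1. H3K4me2 lay over the same 5 promoters in both genotypes, those of Pax3, Pax7, Lbx1, Met and Six4, against 61.2% of genes in WT and 60.7% in Shh-/-. H3K27me3 lay over 5, those of Pax3, Pax7, Lbx1, Met and Myod1, against 12.2% of genes. Pax3, Pax7, Lbx1 and Met held both H3K4me2 and H3K27me3 in Shh-/- limbs, 4 of 8 against 10.3% of genes. Met entered through a 300-bp H3K27me3 peak 0.95 kb into the gene, near the edge of the promoter window. With 500 bp on either side of the start, H3K27me3 lay over 4 of 8 promoters, without Met. Myf5 and Myog had a peak of none of the 5 limb lists over the promoter, a state shared by 35.6% of genes.

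The Polycomb mark was the most extensive one at these loci. H3K27me3 covered 92350 bp in 69 peaks, and 85.3% of it lay at Pax3, Pax7 and Lbx1. Of the 69 peaks, 45 had an FDR under 0.05, and the peak counts of each gene below include the others. By share of its window covered, Lbx1 stood at 21.2%, Pax3 at 16.8%, Pax7 at 12.2% and Myod1 at 7.89%, and 99.6%, 99.3%, 98.6% and 97.3% of coding genes were covered less. The median gene was covered to 0.0636% and the 95th percentile was 5.18%. Of the 8100 bp in the Myod1 window, 4650 bp lay in a domain at the neighbouring gene Kcnc1 and 3450 bp nearer to Myod1. The 7.89% thus rests in larger part on peaks at Kcnc1. Six4 (4.3%) lay under that percentile, Myog (0.195%) and Met (0.19%) far below, and Myf5 had no H3K27me3 peak. No WT H3K27me3 list was analysed here, so these values hold for Shh-/- limbs.

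**Figure D2:**
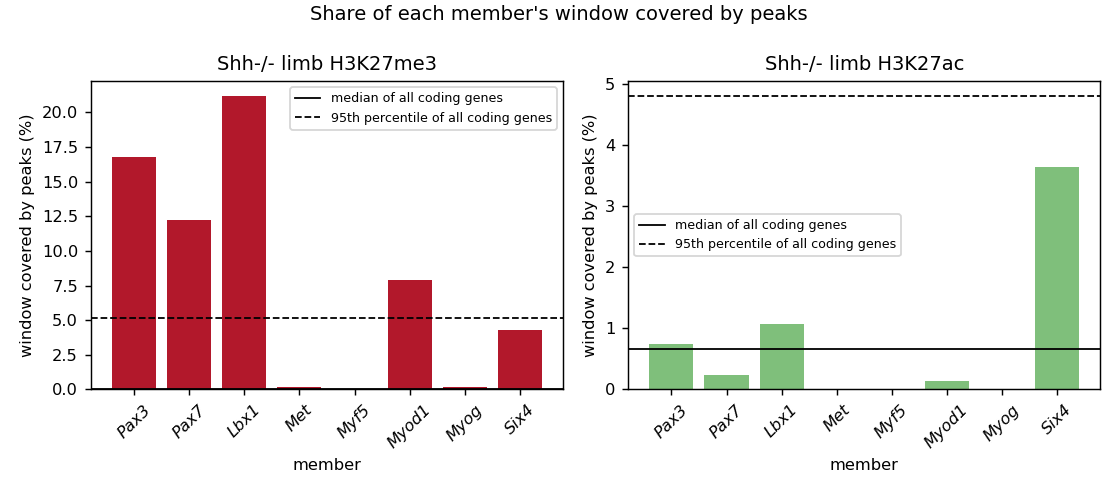
Share of each member's window (gene body plus 50 kb either side, in %) covered by H3K27me3 peaks (left) and H3K27ac peaks (right) in Shh-/- limbs, 1 bar per gene. The solid line is the median and the dashed line the 95th percentile of 21911 coding genes. Pax3, Pax7, Lbx1 and Myod1 pass the dashed line for H3K27me3 and no member does for H3K27ac. The Myod1 bar for H3K27me3 includes peaks at the neighbouring gene Kcnc1. That of Six4 includes the full length of a peak that crosses the window's edge.

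Pax3, a paired-box and homeobox factor at the head of the limb muscle programme, lay in the widest Polycomb domain of the group. Its window held 28 H3K27me3 peaks covering 32900 bp. Of these, 17 peaks (29450 bp) joined over gaps of up to 1 kb into a domain of 32.6 kb, chr1:78187250-78219849, the 10th widest of 14836, and the other 11 (3450 bp) lay further into the gene or past its 3′ end. The gene start (chr1, minus strand, gene body 78101267 to 78197134) lay inside the widest single peak of 10000 bp, also the best-ranked (rank 168). All 4 WT and all 8 Shh-/- H3K4me2 peaks of the window lay in this domain. They clustered at 4 places: an intron 7.13 kb into the gene, the start, 6.62 kb upstream and 19.4 kb upstream.

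The intronic H3K4me2 peak of Pax3 was its strongest, and its height differed most between the genotypes. In the study's own test of read counts, nearly all H3K4me2 peaks of the limb did not change with genotype. The differences in H3K4me2 height given here and below come from pooled lists and were not tested. In WT it spanned chr1:78189200-78189999, ranked 128 of 36585 and reached a log2 ratio over input of 5.10. In Shh-/- limbs it spanned 78189350 to 78189749, ranked 5248 and reached 4.00. The WT peak was thus higher by 1.10 on the log2 scale, and 97.0% of the 27171 overlapping H3K4me2 pairs had a lower difference. The peak over the start also stood higher in WT (3.37 against 2.75), as did the one 19.4 kb upstream (4.07 against 3.76, both 1300 bp wide), while the one 6.62 kb upstream did not (2.57 against 2.67). The 300 bases at the centre of the WT intronic peak are printed because this was the best-ranked H3K4me2 peak of the 8 loci, a choice made after its values were seen. They held 26 CpG, more than 86.5% of WT H3K4me2 peak centres of that length, and 1 E-box, in capitals (71.3% of centres held at least 1).
Pax3 intron, chr1:78189450-78189749, plus strand: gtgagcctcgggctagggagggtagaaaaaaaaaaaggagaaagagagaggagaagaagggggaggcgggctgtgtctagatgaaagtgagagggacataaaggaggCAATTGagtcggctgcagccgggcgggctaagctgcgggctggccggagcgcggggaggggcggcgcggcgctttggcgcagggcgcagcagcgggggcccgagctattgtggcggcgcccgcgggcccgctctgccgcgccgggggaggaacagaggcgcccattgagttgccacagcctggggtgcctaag

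H3K27ac at Pax3 covered 0.23% of the window in WT limbs, more than in 30.6% of genes, and 0.74% in Shh-/-, more than in 52.6%. WT limbs had 3 peaks of 150 bp each. An intronic peak 6.93 kb from the start (rank 34092, log2 ratio 2.82) was shared with Shh-/- (rank 31022, 2.72), and 2 WT-only peaks lay beyond the 3′ end, 114 and 116 kb from the start (ranks 18834 and 39613). Shh-/- limbs had 7 peaks covering 1450 bp, of which 6 were Shh-/- only. The best-ranked was 250 bp wide and lay 114 kb from the start (rank 13734), 351 bp from a WT-only peak. Another of 450 bp lay in the intron 7.93 kb from the start (rank 16757), 851 bp from the shared WT peak. Both genotypes thus held H3K27ac close to these 2 places. The remaining 4 lay 128 and 115 kb downstream of the start, 0.266 kb upstream of it and 4.47 kb upstream, with ranks from 24964 to 42250. Of the 7, 4 overlapped H3K27me3.

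**Figure D3:**
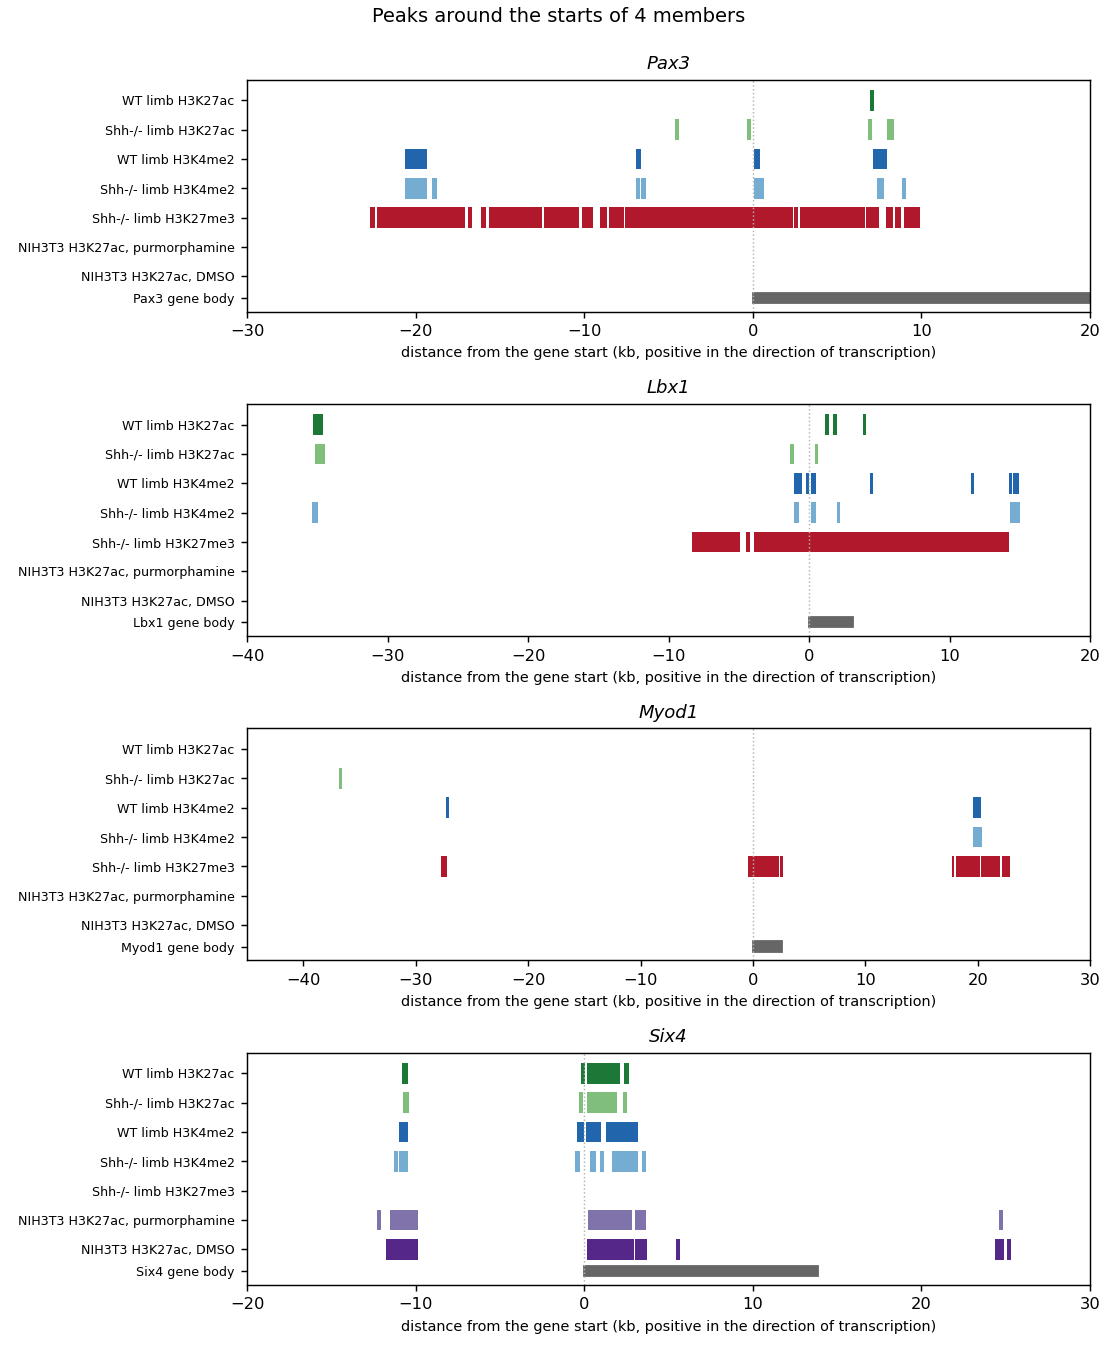
Peaks of the 7 lists (rows) around Pax3, Lbx1, Myod1 and Six4, by distance from the gene start in kb, positive in the direction of transcription; grey bars are gene bodies and peaks under 0.25 kb are drawn at that width. At Pax3 and Lbx1 the H3K27me3 row is nearly continuous across the start, at Myod1 it covers most of the gene body and the start of Kcnc1, 19.6 kb away, and at Six4 it is absent near the start where the H3K27ac rows are wide.

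Pax7, the paralogue of Pax3 that later marks muscle satellite cells, lay under H3K27me3 as well, with no H3K27ac peak near it. Its 25 H3K27me3 peaks held 23950 bp, and the widest, 14950 bp across the gene start at rank 134, was the 12th widest of 20830. The domain that 13 of them joined into, chr4:139817200-139838899, measured 21.7 kb. H3K4me2 at the start was near the weak end of the WT list (200 bp, rank 31402, log2 ratio 2.32) and ranked 8731 in Shh-/- (350 bp, 3.74). This difference of -1.41 was among the lowest of the H3K4me2 pairs, with 3.85% lower. Of the 4 Shh-/- H3K4me2 peaks 3 were Shh-/- only, and of the 2 WT peaks 1 was WT-only. A Shh-/- only peak of 150 bp, 0.229 kb inside the gene, lay 201 bp from the WT peak at the start. Another lay 101 bp from the WT-only peak. H3K27ac was found only 118 kb from the start, beyond the 3′ end and nearest to Tas1r2. It formed 1 shared peak (rank 12421 and 3.76 in WT, rank 13225 and 3.45 in Shh-/-) and 1 Shh-/- only peak of 100 bp, 351 bp from the WT peak.

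Lbx1, the homeobox gene that migrating precursors keep on, had the most concentrated H3K27me3. A single peak of 18200 bp, chr19:45221550-45239749, spanned the whole gene, ranked 48 of 20830 and was the 7th widest. With its neighbours it made a domain of 22.6 kb. H3K4me2 lay just before the start in both genotypes, as a 600-bp peak of rank 14949 and log2 ratio 3.29 in WT and a 400-bp peak of rank 1403 and 4.52 in Shh-/-, and 6.31% of pairs had a lower difference than its -1.22. All 4 overlapping H3K4me2 pairs of this window stood higher in Shh-/-, a pair of them against the same Shh-/- peak. The WT window held 7 H3K4me2 peaks (2300 bp) and the Shh-/- window 5 (2050 bp), so the Shh-/- peaks were not more numerous.

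Inside the Polycomb domain of Lbx1 the H3K27ac peaks of the genotypes did not overlap each other. WT limbs had 3 WT-only peaks there. A 200-bp peak lay in an exon 1.71 kb from the start (rank 13472, log2 ratio 3.68). A 150-bp peak lay in the intron 1.16 kb from the start (rank 29603). Another of 200 bp lay 3.81 kb from the start, past the 3′ end (rank 26045). Shh-/- limbs had 2 Shh-/- only peaks, 250 bp at 0.413 kb inside the gene (rank 41716) and 100 bp at 1.24 kb upstream (rank 33128). The first of these lay 501 bp from the nearest WT peak.

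Outside that domain, about 35 kb upstream of Lbx1, lay a wider peak that both genotypes shared. It was 700 bp in WT (chr19:45270400-45271099, rank 18082, log2 ratio 3.38) and 750 bp in Shh-/- (45270250 to 45270999, rank 13944, 3.40), a difference of -0.02. In Shh-/- an H3K4me2 peak of 400 bp (rank 18023) overlapped it, without a WT partner. No H3K27me3 peak overlapped it, and no NIH3T3 peak lay in the window. The 300 bases at the centre of the WT peak are printed, chosen after its values were seen as the H3K27ac region of this window that both genotypes held. They held 8 CpG, more than 70.9% of WT H3K27ac peak centres, and 1 E-box, in capitals, of the form CAGCTG, which 14.8% of those centres held.
Lbx1 upstream region, chr19:45270600-45270899, plus strand: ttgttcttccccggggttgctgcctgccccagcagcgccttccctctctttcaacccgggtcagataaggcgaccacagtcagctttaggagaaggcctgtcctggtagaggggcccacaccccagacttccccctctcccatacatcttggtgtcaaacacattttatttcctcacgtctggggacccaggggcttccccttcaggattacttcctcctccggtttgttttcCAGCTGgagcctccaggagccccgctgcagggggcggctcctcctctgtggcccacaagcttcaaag

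The myogenic bHLH genes had few peaks of an active mark. Myf5, the earliest of them in the embryo, had 2 peaks in all 7 lists, both H3K4me2 and WT-only: 250 bp at 2.77 kb upstream of the start (rank 18244, log2 ratio 3.07) and 100 bp over an exon of its neighbour Myf6 (rank 35121, FDR 0.0941). Myod1, a master factor of muscle fate, carried H3K27me3 over most of its gene body as a peak of 2800 bp (chr7:46376000-46378799, rank 1523, log2 ratio 3.71). Its window had no WT H3K27ac peak and 1 Shh-/- only peak of 150 bp at 36.7 kb upstream (rank 29587), and a WT-only H3K4me2 peak of 150 bp lay 27.1 kb upstream (rank 27233). Myog, which acts at differentiation, had neither H3K27ac nor NIH3T3 peaks, and its H3K4me2 (950 bp at rank 7214 in WT, 850 bp at rank 10763 in Shh-/-) and a 200-bp H3K27me3 peak lay 8.66 to 8.81 kb away over an exon of Ppfia4.

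The strongest H3K4me2 peak of the Myod1 window belonged to the start of Kcnc1, a potassium channel gene 19.6 kb away. It ranked 659 in WT (log2 ratio 4.70) and 15953 in Shh-/- (3.30), and 99.0% of H3K4me2 pairs had a lower difference than its 1.40. H3K27me3 peaks of 2100 bp (rank 2541) and 1650 bp (rank 193) lay over the same place in Shh-/-. Only 3 of the 7 H3K27me3 peaks of this window were nearest to the start of Myod1.

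Met, the receptor tyrosine kinase that HGF activates, kept a marked promoter in the limb without acetylation. H3K4me2 spanned 1400 bp in WT (chr6:17463200-17464599, rank 1502, log2 ratio 4.45) and 1150 bp in Shh-/- (rank 3689, 4.16), a difference of 0.29 where the median pair was at -0.11. H3K27me3 was a 300-bp peak of rank 5639, 0.95 kb into the gene, and a 100-bp peak of rank 16172 (FDR 0.1597) 73.4 kb in. The first overlapped a Shh-/- only H3K4me2 peak of 250 bp, which began 1 bp past the end of the WT H3K4me2 peak. The only limb H3K27ac peak of its 210181-bp window was WT-only, 100 bp wide and 41.7 kb upstream (rank 42937 of 49679).

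In NIH3T3 cells Met was broadly acetylated, over a greater length with DMSO than with purmorphamine. With DMSO 42 peaks covered 30900 bp and with purmorphamine 29 peaks covered 14350 bp, or 14.7% and 6.83% of the window, where the median gene had 2.55% and 2.33%. The DMSO cover was 2.15 times that with purmorphamine, and among 14228 genes with at least 1% of the window covered in both lists the median ratio was 1.06 and 97.3% had a lower one. Over the promoter the peak was 2800 bp wide and ranked 673 with DMSO (log2 ratio 5.04) and 2300 bp wide and ranked 6053 with purmorphamine (4.41). A DMSO peak of 5400 bp in the gene's interior, 30.4 kb from the start (log2 ratio 3.99), overlapped 6 purmorphamine peaks that held 3600 bp in all and reached 2.50 to 3.17. Further in, a 2650-bp DMSO peak 40.6 kb from the start (chr6:17504400-17507049, rank 10700, 4.13) had no purmorphamine partner. Of the DMSO peaks at Met 24 of 42 (57.1%, interval 42.2 to 70.9) were found with DMSO only, against 41.1% of the whole list. Of the purmorphamine peaks 5 of 29 (17.2%, interval 7.6 to 34.5) were found with purmorphamine only, against 36.5%, none of these over 250 bp wide. Peaks of 1 gene are not independent, and the intervals treat them as if they were.

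**Figure D4:**
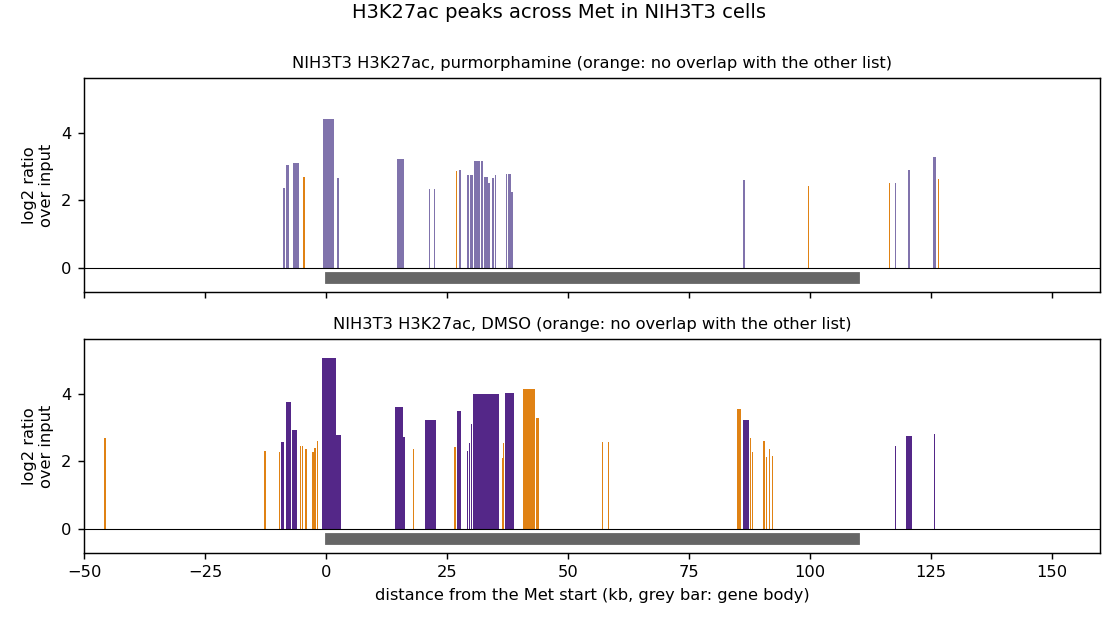
H3K27ac peaks across Met in NIH3T3 cells with purmorphamine (top) and DMSO (bottom): each box is a peak, its height the authors' largest log2 ratio over input, its position the distance from the gene start in kb; orange boxes have no partner in the other list. The DMSO row holds 42 peaks and the purmorphamine row 29, and the widest DMSO-only box lies 40.6 kb into the gene.

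Six4, a homeobox factor that acts upstream of the myogenic factors, was the member with an active promoter in every H3K27ac list. The promoter peak was 1950 bp wide and ranked 1088 in WT (chr12:73111350-73113299, log2 ratio 5.82), 1750 bp and rank 665 in Shh-/- (5.75), 2600 bp and rank 1450 with purmorphamine (5.03), and 2800 bp and rank 1056 with DMSO (4.92). The limb pair differed by 0.07 and the NIH3T3 pair by 0.12, both well inside the 5th to 95th percentile of all pairs (-1.29 to 1.40 and -1.61 to 0.87). No H3K27me3 peak lay over this promoter. H3K4me2 around the start was higher in WT, at 4.45 against 3.64, 4.16 against 3.76 and 3.57 against 2.45 for 3 overlapping peaks, and 92.5%, 79.0% and 97.2% of pairs had lower differences.

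Most peaks of the Six4 window were nearer to other starts. Of the 10 WT and 9 Shh-/- H3K27ac peaks, 3 in each were nearest to the start of Six4. Of the 2 WT-only peaks, 1 of 100 bp lay 0.094 kb upstream of the start (rank 39596). Shh-/- only peaks were 100 bp at 0.244 kb upstream (rank 42506), 51 bp from that WT-only peak, and 150 bp in an intron of Mnat1 (rank 33667). The peaks nearest to the edge of a 50 kb flank from inside were NIH3T3 H3K27ac peaks 841 bp from that of Six4 (ranks 30278 with DMSO and 42967 with purmorphamine), and the nearest peaks just outside any window were H3K4me2 peaks 1502 and 1552 bp beyond that of Myog (rank 10622 in Shh-/- and 8005 in WT).

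Counted over all 8 windows, the question of which limb peaks depend on Shh had few peaks to rest on. Of 19 WT H3K27ac peaks 8 were WT-only (42.1%, interval 23.1 to 63.7) against 48.5% of the whole list. Of 22 Shh-/- H3K27ac peaks 12 were Shh-/- only (54.5%, interval 34.7 to 73.1) against 38.4%. Both intervals hold the share of their whole list. Without Six4, left out after seeing the data, the counts were 6 of 9 (66.7%, interval 35.4 to 87.9) and 10 of 13 (76.9%, interval 49.7 to 91.8). Of these 10 peaks, 6 lay at Pax3 and 2 at Lbx1. Peaks of 1 gene are not independent, so the intervals given here cannot decide a difference from the whole list. For H3K4me2, 9 of 28 WT peaks were WT-only (32.1%, interval 17.9 to 50.7) against 25.7%, and 13 of 35 Shh-/- peaks were Shh-/- only (37.1%, interval 23.2 to 53.7) against 22.5%. The second of these intervals lies just above its whole-list share, and when partners up to 500 bp away were also taken as shared the count was 5 of 35 (14.3%), against 4058 of 38468 in the whole list.

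Where peaks of both genotypes overlapped, their heights were spread to either side. The 11 H3K27ac pairs had a median difference of 0.07 on the log2 scale, WT minus Shh-/-, against 0.14 over 25606 pairs, and ran from -1.36 to 0.70. The 19 H3K4me2 pairs had a median of 0.19 against -0.11 and ran from -1.55 to 1.40. Of these 19, 4 lay above the 95th percentile of all pairs (0.94), at Pax3, at Kcnc1 in the Myod1 window and 2 in the Six4 window. Below the 5th (-1.31) lay 2, and 1 of them was at Pax7. These differences were not tested, and the study's own test of read counts found nearly all H3K4me2 peaks unchanged.

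**Figure D5:**
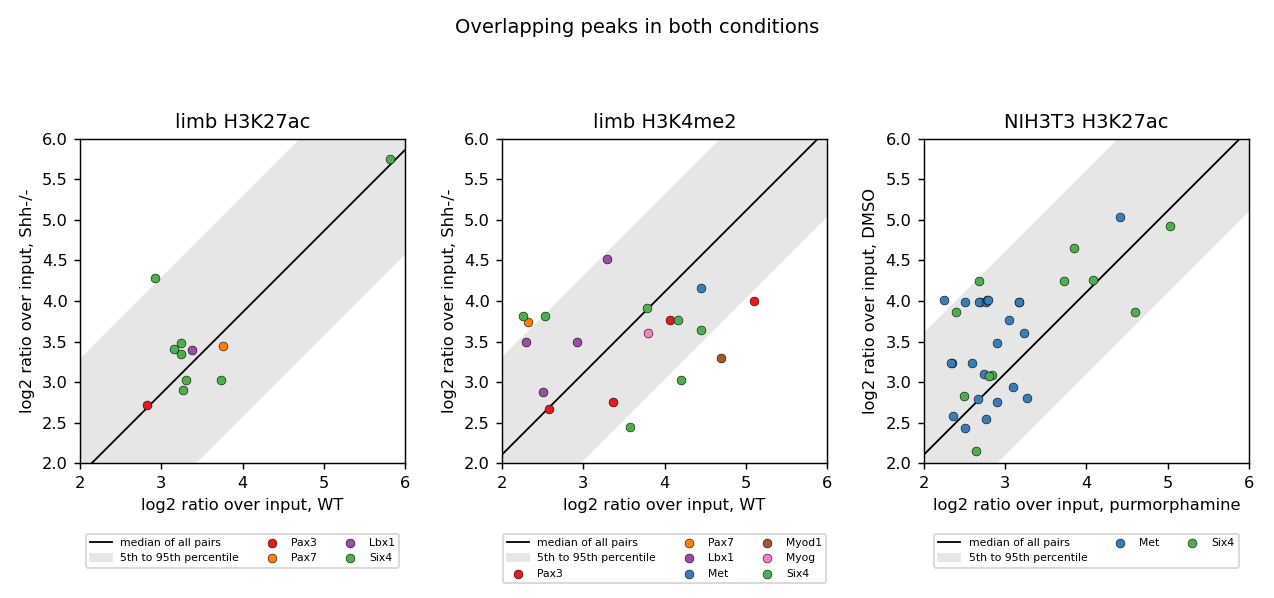
The authors' largest log2 ratio over input of overlapping peaks in the windows of the members, with WT against Shh-/- for H3K27ac (left, 11 pairs) and H3K4me2 (middle, 19 pairs) and purmorphamine against DMSO in NIH3T3 cells (right, 35 pairs); colour is the window. The line is the median of all pairs in the lists and the band their 5th to 95th percentile: limb pairs fall to both sides of the line, and most NIH3T3 pairs at Met fall above it, on the DMSO side.

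H3K4me2 and H3K27ac peaks at these loci often lay over H3K27me3. In Shh-/- limbs 18 of 35 H3K4me2 peaks overlapped H3K27me3 (51.4%, interval 35.6 to 67.0) against 11.4% of the list. They were 8 of 8 at Pax3, 3 of 4 at Pax7, 3 of 5 at Lbx1, 1 of 3 at Met, 1 of 1 at Myod1 and at Myog, and 1 of 13 at Six4. H3K27ac peaks of Shh-/- limbs overlapped it in 7 of 22 cases (31.8%, interval 16.4 to 52.7) against 0.701%, namely 4 at Pax3, 2 at Lbx1 and 1 in the Six4 window. Peaks of 1 gene lie in the same domain and are not independent of each other.

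In NIH3T3 cells only the windows of Met and Six4 held H3K27ac, and the other 6 held no peak in either list. Over both windows, 6 of 41 purmorphamine peaks were found with purmorphamine only (14.6%, interval 6.88 to 28.4) against 36.5%, and 30 of 58 DMSO peaks with DMSO only (51.7%, interval 39.2 to 64.1) against 41.1%. Of the 41 purmorphamine peaks, 29 lay at Met, where several overlapped the same DMSO peak and each was counted as shared. The intervals treat peaks as independent, so they cannot decide a difference from the whole lists. Without Met the counts were 1 of 12 (interval 1.49 to 35.4) and 6 of 16 (interval 18.5 to 61.4). The 35 overlapping pairs had a median difference, purmorphamine minus DMSO, of -0.58 against -0.11 over 55759 pairs. Of these, 24 pairs were at Met (median -0.68), where several purmorphamine peaks met the same DMSO peak, and the 11 pairs at Six4 had a median of -0.27. Promoters with H3K27ac were those of Met and Six4, 2 of 8 in each condition, against 50.8% of genes with purmorphamine and 50.7% with DMSO. Of the 19 WT limb peaks, 6 overlapped a DMSO peak of NIH3T3 cells (31.6%, interval 15.4 to 54.0) against 38.2% of the list.

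The genes around these in the muscle pathway were read by the same promoter counts. The signals that the mesenchyme sends to the precursors, Hgf (the ligand of Met), Cxcl12 and Efna5, held H3K27ac and H3K4me2 at 3 of 3 promoters in both genotypes. Over all genes these marks lay at 41.4% and 61.2% of promoters in WT and 38.5% and 60.7% in Shh-/-. The same 3 promoters held H3K27ac in both NIH3T3 conditions, and that of Cxcl12 also held H3K27me3 in Shh-/- limbs. Among genes of upstream control and migration, the promoters of Eya1, Meox2 and Gab1 held H3K27ac and H3K4me2 in both genotypes. Those of Cxcr4 (the receptor of Cxcl12), Eya2, Msc and Tcf21 held H3K4me2 in both genotypes and H3K27me3, without H3K27ac. In Shh-/- limbs 9.03% of all genes held H3K4me2 and H3K27me3 without H3K27ac. The promoter of Mef2c had a peak of none of the 5 limb lists. Of 11 muscle differentiation genes 1 held H3K27ac in WT limbs (Mymk) and 0 in Shh-/-, against 41.4% and 38.5% of all genes. H3K4me2 lay at 2 of them in each genotype (Ckm and Des), against 61.2% in WT and 60.7% in Shh-/-, and H3K27me3 at 3 (Acta1, Ckm and Des), against 12.2%. The promoters of 7, including Myh3, Actc1 and Ttn, had a peak of none of the 5 limb lists, against 35.6%. None of these lists was tested.

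Promoters with both H3K4me2 and H3K27me3 were also found among genes of other cell types. The limb mesenchyme markers held both at 4 of 5, each with H3K27ac as well. The 8 endothelial genes, also expressed in a minority of limb cells, had H3K27ac at 1 of 8 in each genotype (Cdh5 in WT, Erg in Shh-/-), H3K4me2 at 4 of 8 in each, and both H3K4me2 and H3K27me3 at 3 of 8. The 8 neural and endodermal regulators had H3K27ac at 0 of 8, H3K4me2 at 3 of 8 in each genotype and H3K27me3 at 8 of 8. Over all genes H3K27ac lay at 41.4% of promoters in WT and 38.5% in Shh-/-, and H3K4me2 at 61.2% and 60.7%. H3K27me3 lay at 12.2%, and both H3K4me2 and H3K27me3 at 10.3%. The muscle precursor genes, with 5 of 8 for H3K4me2 (62.5%, close to all genes) and 5 of 8 for H3K27me3, were not tested against either group. Of the somite markers Meox1, Tcf15 and Uncx, the promoters of Meox1 and Tcf15 held H3K27ac in WT limbs and that of Tcf15 in Shh-/-. The part of somite cells in these values was not tested.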

How the data were processed

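The authors sequenced histone ChIP and input libraries (24 libraries, 14 of them immunoprecipitations) and called peaks with CisGenome on mm10, 1 deposited list per condition with both replicates pooled. Per the labels, Bowtie2 2.2.5, limma and mm10 are named in the submitters' processing notes. The deposited columns used here were position, rank, the authors' FDR (a q-value), score (at least 3 in every list), largest log2 ratio over input and −log10 Poisson p (at least 5). Reads per library were not used here, so depth behind each peak is unknown, and no test was made.

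Peaks were joined to GENCODE genes of the same build (GRCm38). Peaks were compared by overlap of at least 1 bp, in Python 3.11.15 with pandas 2.3.3, and intervals came from statsmodels 0.14.6. The overlap code was tested on simulated intervals and checked against bedtools 2.31.1. Promoter sequences came from RefSeq, and peak centres from GRCm38. Peak starts in the lists fall on multiples of 50 bp, which sets the precision of every edge. The 8 genes and the gene lists were chosen with earlier results of these data known. The text names all 8 members with their promoter peaks, best-ranked peaks and condition-only limb H3K27ac peaks (by range where over 5), except for results in the Six4 window and the wider gene lists that are not reported here; other peaks, and the Myf5, Myog, Pax3 and Lbx1 sequences, were named after their values were seen. Alternatives covered overlap, threshold, list size, flank, nearest start, merging and promoter width. Counts without the window of Six4 or of Met were added after seeing the data.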

Additional observations from a re-analysis of the deposited data

How the results depend on the processing

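Over 22 values and 12 alternative settings, 103 of 132 recomputed values stayed within the counting interval of the share or within 1.5 times the count. Of the shares, Shh-/- only H3K27ac was 30% and purmorphamine-only and control-only NIH3T3 H3K27ac 0% and 34.6% with the better-ranked 50% of each list, where the whole lists had 29.3%, 26.8% and 30.4%. Counting gaps of up to 500 bp as shared gave 17.9% for WT-only and 14.3% for Shh-/- only H3K4me2 and 36.2% for control-only NIH3T3 H3K27ac, where the whole lists had 12.2%, 4058 of 38468 peaks, and 26.9%. Requiring 50% of a peak overlapped gave 70.7% for the latter (whole list 51.2%). Leaving out the window of Six4, a choice made after seeing the data, gave 66.7% for WT-only and 76.9% for Shh-/- only H3K27ac, and leaving out that of Met gave 37.5% for control-only NIH3T3 H3K27ac. Merging peaks within 1 kb gave 68.4% of Shh-/- H3K4me2 peaks over H3K27me3 (whole list 14.7%). Peak counts in list order (WT and Shh-/- H3K27ac, WT and Shh-/- H3K4me2, H3K27me3, purmorphamine, control) moved as follows. A 20 kb flank gave 9 and 12 H3K27ac peaks. A 100 kb flank gave 36, 36, 46, 57 and, with purmorphamine, 67. Counting only peaks nearest to the member's own start gave 11, 14 and, with purmorphamine, 27. Merging gave 12 and 14 H3K27ac, 19 Shh-/- H3K4me2, 21 H3K27me3, 19 purmorphamine and 25 control peaks. An FDR under 0.05 left 45 H3K27me3 peaks. With the better-ranked 50%, 1 promoter held Shh-/- H3K27ac. Fewer peaks enter under a stricter threshold or smaller flank by construction, and the cause of the other shifts was not tested. No paired analysis was possible because each list pools both replicates, and no replicate could be left out for the same reason. Peak lists give presence above a threshold, so a missing peak is not a measured absence.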
